A study of Caenorhabditis elegans with 7 samples.

Results

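The 10 genes described here, vha-1, vha-2, vha-4, vha-5, vha-6, vha-8, vha-12, vha-13, vha-15 and unc-32, encode subunits of the vacuolar ATPase of Caenorhabditis elegans. They were chosen by name, among 27909 genes in the deposited tables, and all 10 were found. They were followed in whole L4 larvae by SLAM-ITseq, a method that marks RNA made in a chosen tissue. The enzyme uracil phosphoribosyltransferase lets cells use 4-thiouracil from their food for new transcripts. Once treated with iodoacetamide, these bases are sequenced as C in place of T (T>C). The marked group was 3 libraries of strain BN1190, which carries FLP recombinase driven by the promoter of the hypodermal collagen gene dpy-7 (dpy-7p::FLP). The control was 4 libraries of strain BN1158, labelled as having no FLP. The labels state no more of either genotype. For each library, larvae of 3 plates were kept at 20 °C for 28 h and then had 4-thiouracil for 17 h. Both strains therefore had the labelling agent, and T>C reads in the control give the background.

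The vacuolar ATPase is a rotary pump that spends ATP to move protons into lysosomes, other acidic organelles and, at some plasma membranes, out of the cell. Its V1 sector, in the cytoplasm, holds the ATP-splitting A and B subunits together with stalk and regulatory subunits such as E and H. Its V0 sector, in the membrane, holds a ring of c-type subunits, which carry the protons, and the a subunit, which gives them a path to the ring. Worms have several genes for the a subunit, and these differ in their main site. VHA-5 is best known from the epidermis and the excretory canal, VHA-6 from the apical membrane of the intestine, and UNC-32 from neurons. In the hypodermis the V0 sector with VHA-5 has been tied to secretion of the cuticle.

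All 3 hypodermal FLP libraries and all 4 control libraries held each of the 10 genes. Reads assigned to genes numbered 18985660 to 61942117 in hypodermal FLP libraries and 5041278 to 51990916 in control libraries. Reads with T>C made up 3.35 to 3.76% of gene reads in hypodermal FLP libraries and 2.63 to 4.58% in control libraries. Control replicate 2 stood apart with the fewest reads and the highest share of T>C reads. File headers name a flow cell in 5 libraries and none in hypodermal FLP replicate 1 and control replicate 1, the most deeply read of each group. Whether the 5 share a flow cell was not compared. Markers fixed for 8 hypodermal genes had T>C in 1.77 to 1.97% of summed reads in hypodermal FLP libraries and in 1.06 to 2.32% in control libraries. Those for 6 excretory canal genes had 1.06 to 2.18% in hypodermal FLP libraries and 0.135 to 3.89% in control libraries. The groups therefore overlapped in both lists. They did not overlap for 6 body wall muscle genes, at 5.32 to 6.21% in hypodermal FLP libraries and 4.47 to 5.05% in control libraries. They overlapped for intestine (4.55 to 5.51% in hypodermal FLP, 2.98 to 6.33% in control) and neurons (4.20 to 5.99% in hypodermal FLP, 3.99 to 9.20% in control). They also overlapped for germline (1.80 to 2.33% in hypodermal FLP, 1.36 to 3.37% in control) and sperm (0.635 to 1.11% in hypodermal FLP, 1.01 to 2.76% in control). No marker gene found was at 0 in all 7 libraries, though the excretory canal gene ceh-6 had 0 reads in control replicate 3. The part of these values in the results was not tested. Summed reads follow the most read genes of a list. In hypodermal FLP replicate 1, dpy-13 had 179217 reads and elt-3 had 624, and asp-1 had 323413 and elt-2 had 715. Separation was not counted gene by gene in these lists. Of all single genes tested, 5.87% had every hypodermal FLP library above every control. The authors' deposited table lists 198 genes, against 27909 in the counts, with adjusted p-values of 0.01477 to 0.09998 by the authors' own test. It lists 0 of the 10, which says little where so few genes are listed.

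No subunit gene passed the test for labelling above or below the control background. By edgeR's quasi-likelihood test on reads with and without T>C, 0% of 9822 genes passed an adjusted p of 0.05 in either direction, and 0 of the 10 subunit genes did. At an unadjusted p under 0.05, 2.86% of all genes were higher and 0.407% lower, against 0 of the 10 subunit genes in either direction. Labelled shares did not overlap between the groups, with hypodermal FLP higher, in 5.87% of all genes and in 0 of the 10. The log2 odds ratio of T>C reads, hypodermal FLP over control, had a median of 0.13 over the subunit genes and 0.54 over all genes tested. It lay above 0 in 8 of the 10 subunit genes and in 70% of all genes. That direction depends on the scale: above 0 were 4 of 10 after centring each library on its pooled odds, and 3 of 10 after centring on its median gene. The 10 are among the more read genes, and no median log2 was taken over genes with like numbers of reads. The gap between the medians therefore does not show that the subunit genes are labelled less than such genes. The SE of the 10 estimates ran from 0.37 (vha-2) to 0.99 (vha-5) on the log2 scale. At 0.91 with an SE of 0.52, vha-1 had an unadjusted p of 0.0796 (edgeR), before adjustment over 9822 genes. A call after adjustment needs a difference of more SEs than this. The lack of calls therefore does not show equal labelling.

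Among the V1 genes, the catalytic A subunit gene vha-13 had T>C in 2.82, 3.85 and 2.39% of reads in hypodermal FLP libraries, against 2.96, 2.70, 3.54 and 2.59% in control libraries. The group means were 3.02 ± 0.751% (SD, n = 3) in hypodermal FLP and 2.95 ± 0.426% (SD, n = 4) in control. The hypodermal FLP values reached past the controls at both ends, and the log2 odds ratio was 0.02 (SE 0.38). The gene for the nucleotide-binding B subunit, vha-12, had 2.51, 2.53 and 3.40% in hypodermal FLP libraries, against 1.95, 4.07, 2.93 and 2.84% in control libraries. Its lowest and its highest library were both controls, and the log2 odds ratio was -0.03 (SE 0.42).

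The peripheral stalk gene vha-8, for subunit E, had the lowest estimate of the 10. T>C was in 1.95, 2.14 and 3.04% of its reads in hypodermal FLP libraries, against 2.62, 4.24, 2.86 and 3.03% in control libraries. Hypodermal FLP replicates 1 and 2 lay under all controls, while replicate 3 lay among them. The log2 odds ratio was -0.43 (SE 0.45, unadjusted p 0.341, edgeR). The gene for the regulatory H subunit, vha-15, had 2.71, 4.01 and 4.21% in hypodermal FLP libraries, against 2.71, 4.72, 0.516 and 3.65% in control libraries. Control replicate 3 was far under the other libraries and control replicate 2 was the highest, so that the control spread enclosed the hypodermal FLP values. The log2 odds ratio was 0.56 (SE 0.62), or 0.013 without control replicate 3 and 0.87 without control replicate 2.

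**Figure D1:**
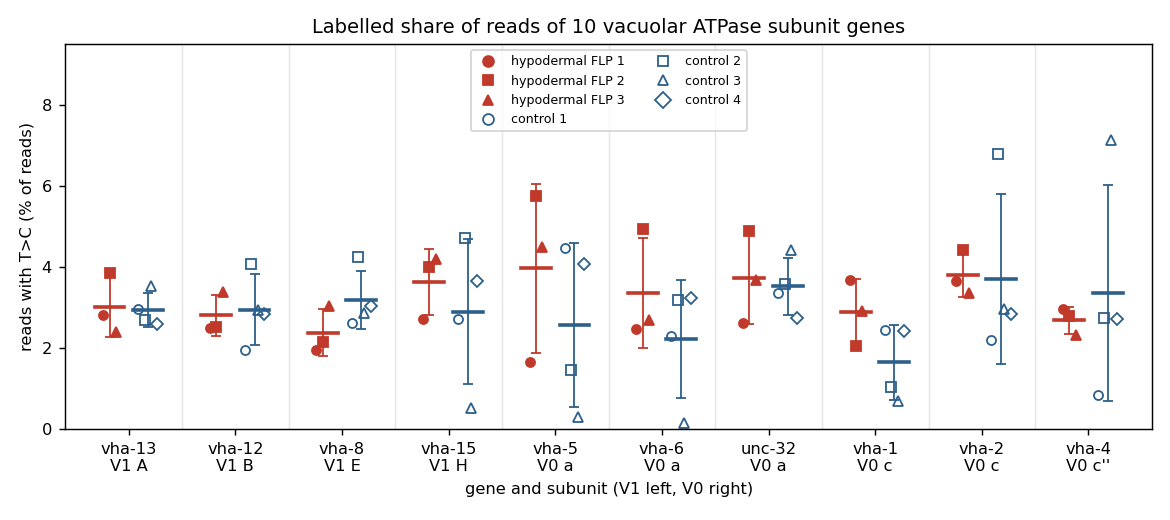
Share of reads with T>C (%, vertical axis) for each of the 10 genes, in 3 hypodermal FLP libraries (filled red) and 4 control libraries (open blue), with group means (thick lines) and SD (thin bars). The groups overlap in each gene, and controls run as low as 0.152% in vha-6 and as high as 7.12% in vha-4.

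The 3 a subunit genes among the 10 include a paralog known from the hypodermis. They cannot decide whether it is marked where FLP acts, since the 8 hypodermal markers overlapped between the groups. Those had T>C in 1.77 to 1.97% of summed reads in hypodermal FLP libraries and 1.06 to 2.32% in control libraries. For vha-5, T>C was in 88 of 5270, 69 of 1202 and 50 of 1113 reads in hypodermal FLP libraries, or 1.67, 5.74 and 4.49%. In control libraries it was in 182 of 4069, 2 of 136, 3 of 1030 and 65 of 1594 reads, or 4.47, 1.47, 0.291 and 4.08%. Hypodermal FLP replicates 2 and 3 were the highest of the 7, but replicate 1 lay under control replicates 1 and 4. At 136 reads, the Wilson interval of control replicate 2 ran at 95% confidence over 0.404 to 5.20%. The log2 odds ratio of vha-5 was 0.80 (SE 0.99, unadjusted p 0.416, edgeR), which is the widest error of the 10. It was 0.050 without control replicate 3 and 1.37 without hypodermal FLP replicate 1.

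The intestinal a subunit gene vha-6 had an estimate near that of vha-5, and both moved with control replicate 3. T>C was in 2.47, 4.93 and 2.70% of its reads in hypodermal FLP libraries, against 2.31, 3.20, 0.152 and 3.24% in control libraries. Its low control was replicate 3, with 2 T>C reads of 1315, and its log2 odds ratio was 0.80 (SE 0.63, unadjusted p 0.204, edgeR). Leaving out that library gave 0.16, and leaving out control replicate 4 gave 1.16. The neuronal gene unc-32 had 2.62, 4.90 and 3.69% in hypodermal FLP libraries, against 3.37, 3.58, 4.43 and 2.74% in control libraries. The lowest and highest libraries were both of hypodermal FLP, and its log2 odds ratio was 0.06 (SE 0.69).

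Labelling of vha-5 was also set directly against that of vha-6 and of unc-32 in the same library. The a subunit gene vha-7 was not in these contrasts. The log2 odds of vha-5 minus those of vha-6 averaged 0.15 ± 0.68 (SD, n = 3) in hypodermal FLP and 0.33 ± 0.83 (SD, n = 4) in control, a difference of -0.19. For vha-5 minus unc-32 the means were -0.04 ± 0.54 in hypodermal FLP and -0.95 ± 2.03 in control, a difference of 0.91. Two-sided exact permutation tests over the 35 splits gave p = 0.714 and p = 0.571, both 0.714 after Benjamini-Hochberg adjustment over 2 contrasts, where the smallest p possible is 0.0286. The difference from unc-32 rested on control replicate 3, where it was -3.78, and was -0.03 without that library. vha-5 was thus not shown to be labelled more than vha-6 or unc-32. Because the hypodermal markers overlapped between the groups too, these contrasts cannot decide whether vha-5 is marked in the hypodermis.

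The c ring genes held both the largest and some of the smallest estimates. For vha-1, T>C was in 3.69, 2.07 and 2.93% of reads in hypodermal FLP libraries, against 2.45, 1.04, 0.688 and 2.42% in control libraries. Hypodermal FLP replicates 1 and 3 were above all controls, while replicate 2 was under control replicates 1 and 4. The log2 odds ratio was 0.91 (SE 0.52), the highest of the 10, with an unadjusted p of 0.0796 and an adjusted p of 1 (edgeR). It was 0.27 after centring on the median gene and 0.54 without control replicate 3. Within libraries with a flow cell in the header, the mean share was 2.50% in hypodermal FLP and 1.38% in control. In the other libraries, 1 of each group, it was 3.69% in hypodermal FLP and 2.45% in control.

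vha-2, a second gene for subunit c and the neighbour of vha-1 on chromosome III, had 3.64, 4.42 and 3.36% in hypodermal FLP libraries, against 2.21, 6.80, 2.95 and 2.84% in control libraries. The 3 hypodermal FLP values lay above controls 1, 3 and 4 and under control 2, and the log2 odds ratio was 0.19 (SE 0.37). Without control replicate 2 it was 0.53, with an unadjusted p of 0.0704 (edgeR). The median of all genes also rose in that fit, to 0.85, above the value of vha-2. For vha-4, which encodes the c″ subunit of the ring, the shares were 2.95, 2.80 and 2.31% in hypodermal FLP libraries, against 0.853, 2.75, 7.12 and 2.73% in control libraries. The controls of vha-4 spanned the widest range of any of the 10 genes, and its log2 odds ratio was 0.03 (SE 0.56). It was -0.54 without control replicate 1, 0.58 without control replicate 3, and 0.83 without both controls 2 and 3 (unadjusted p 0.0488, edgeR). Without both, 759 of 9693 genes were higher at an unadjusted p under 0.05 (edgeR), and the median of all genes was 0.67.

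**Figure D2:**
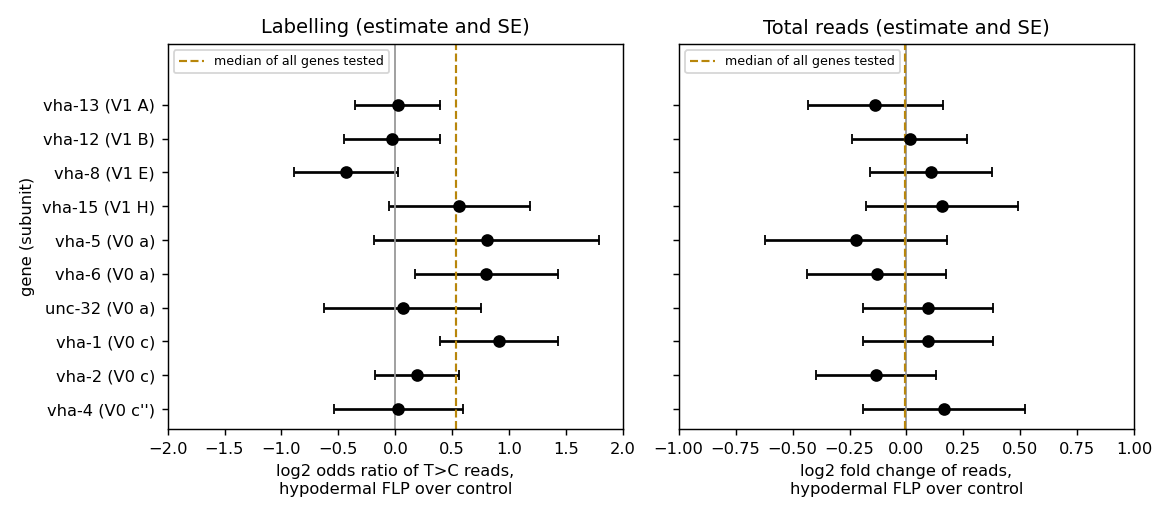
Left, log2 odds ratio of T>C reads and right, log2 fold change of total reads, hypodermal FLP over control, for the 10 genes by subunit, with SE bars; dashed lines mark the median of all genes tested (0.54 for labelling, -0.01 for reads). In labelling, the values of vha-13, vha-12, vha-8, unc-32, vha-2 and vha-4 lie left of the dashed line.

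Summed over the 10 genes, reads with T>C were 2.87, 3.47 and 3.04% in hypodermal FLP libraries, against 2.40, 3.85, 2.97 and 2.86% in control libraries. The means of 3.13 ± 0.304% (SD, n = 3) in hypodermal FLP and 3.02 ± 0.609% (SD, n = 4) in control differed by less than either spread. In each hypodermal FLP library the summed share was under that of all gene reads, which was 3.35, 3.57 and 3.76%. In controls it was under it in replicates 1 and 2 and above it in replicates 3 and 4. Within groups, the variance of T>C reads between libraries was 9.06 times (unc-32) to 96.3 times (vha-4) the binomial variance. The median ratio was 17.5 for the 10 genes and 14.9 for 1616 genes in the same range of reads. The ratio of converted Ts to T>C reads, summed over the 10 genes, was 0.989 to 0.997 in hypodermal FLP libraries and 0.971 to 1.10 in control libraries. The groups overlapped in this measure as well. A ratio under 1 means that some T>C reads had no converted T counted in the entry. In control replicate 3, vha-4 had 186 T>C reads and 140 converted Ts. Such reads are part of the labelled shares given here, and their cause was not tested.

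No difference in total reads was detected for any of the 10 genes. By edgeR's quasi-likelihood test on TMM-scaled counts, with an adjusted p under 0.05, 0% of 12465 genes were higher and 0.016% lower, and 0 of the 10 subunit genes passed. At an unadjusted p under 0.05, 0.73% of all genes were higher and 1.55% lower, and again 0 of the 10. DESeq2 called 9 genes higher and 15 lower, 0 of the 10 among them. The log2 fold change ran from -0.22 for vha-5 (SE 0.40) to 0.17 for vha-4 (SE 0.36), with a median of 0.06, and -0.01 over all genes. It lay above 0 in 6 of the 10 and in 49.3% of all genes. Groups overlapped in each of the 10, while they did not overlap in 2.62% (higher) and 2.25% (lower) of all genes. In whole larvae, fewer cells of a type and less RNA per cell cannot be told apart.

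The 10 genes were well read, between the 84.6th percentile (vha-5) and the 98.0th (vha-2) of tested genes by mean CPM (counts scaled to the library size). CPM here counts tags from the 3′ end and is not divided by length. vha-2 averaged 695 ± 59.6 CPM in hypodermal FLP and 763 ± 166 CPM in control (SD, n = 3 and n = 4). The A subunit gene vha-13 averaged 673 ± 200 CPM in hypodermal FLP and 740 ± 155 CPM in control. These 2 were the most read and did not differ from each other beyond their spread over the 7 libraries. Below them came vha-12, with 530 ± 88.7 CPM in hypodermal FLP and 524 ± 56.3 CPM in control, and vha-8, with 449 ± 27.9 CPM in hypodermal FLP and 417 ± 93.1 CPM in control. vha-1 followed with 336 ± 34.3 CPM in hypodermal FLP and 314 ± 85.9 CPM in control. The spread of the log2 ratio of vha-8 to vha-1 was larger than its mean, so their order was not set.

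vha-4 averaged 250 ± 9.23 CPM in hypodermal FLP and 223 ± 93.0 CPM in control, vha-6 190 ± 32.03 CPM in hypodermal FLP and 208 ± 62.1 CPM in control. vha-15 averaged 210 ± 15.996 CPM in hypodermal FLP and 188 ± 71.7 CPM in control. vha-6 could not be ordered beyond the spread against either vha-4 or vha-15, its neighbours in the order of means. unc-32 had 145 ± 6.56 CPM in hypodermal FLP and 136 ± 35.5 CPM in control. vha-5, a gene known from the hypodermis, had the lowest mean and was read less than unc-32 in 6 of the 7 libraries. It had 77.6, 60.6 and 58.3 CPM in hypodermal FLP libraries, against 70.9, 31.7, 125 and 77.8 CPM in control libraries. Its lowest and highest libraries were controls 2 and 3, the least deeply read.

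**Figure D3:**
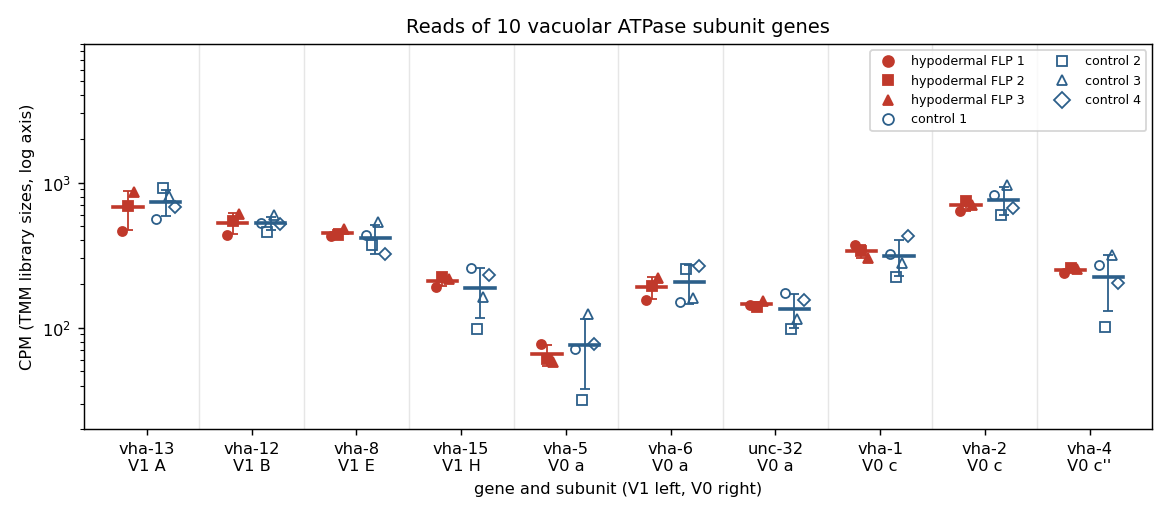
CPM (log axis) of the 10 genes in 3 hypodermal FLP libraries (filled red) and 4 control libraries (open blue), with means and SD. Control replicate 2 is the lowest library of vha-1, vha-2, vha-4, vha-5, vha-15 and unc-32 and the highest of vha-13.

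Control libraries were more scattered than hypodermal FLP libraries in several genes. In control replicate 2, vha-4 had 102 CPM and vha-15 had 98.9 CPM, against 204 CPM or more and 164 CPM or more in the other controls. In the same library vha-13 reached 917 CPM and vha-6 255 CPM. Members of the same pump thus moved in opposite directions in 1 library. Averaged over the 10 genes, log2 CPM centred on each gene's mean was -0.07, 0.05 and 0.11 in hypodermal FLP libraries and 0.07, -0.40, 0.16 and 0.09 in control libraries. Among 9894 genes, those with the profile most like this average over the 7 libraries were ehbp-1, pyk-1, puf-8, Y61A9LA.3 and tiam-1, with mean absolute differences of 0.05 to 0.08 log2 units. Of the 10 themselves, which make up the average, the closest was vha-12 at 0.10 (rank 25) and the farthest vha-6 at 0.35 (rank 3491).

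The 4 genes for the a subunit were also compared as shares of their summed reads. vha-5 held 19.4, 14.3 and 12.6% in hypodermal FLP libraries, against 17.1, 7.30, 30.5 and 14.8% in control libraries. vha-6 held the largest mean share, 44.2 ± 4.61% in hypodermal FLP and 46.2 ± 10.5% in control. unc-32 held 33.9 ± 1.84% in hypodermal FLP and 30.6 ± 8.33% in control, and vha-7, another a subunit gene, 6.42 ± 0.709% in hypodermal FLP and 5.79 ± 3.89% in control. The composition overlapped between the groups and varied more among controls. The log2 ratio of vha-5 to vha-6 reads differed by 0.02 between the groups (p = 1) and that of vha-5 to unc-32 by -0.21 (p = 0.8286), in two-sided exact permutation tests, both adjusted p = 1. Neither ratio was shown to depend on FLP.

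**Figure D4:**
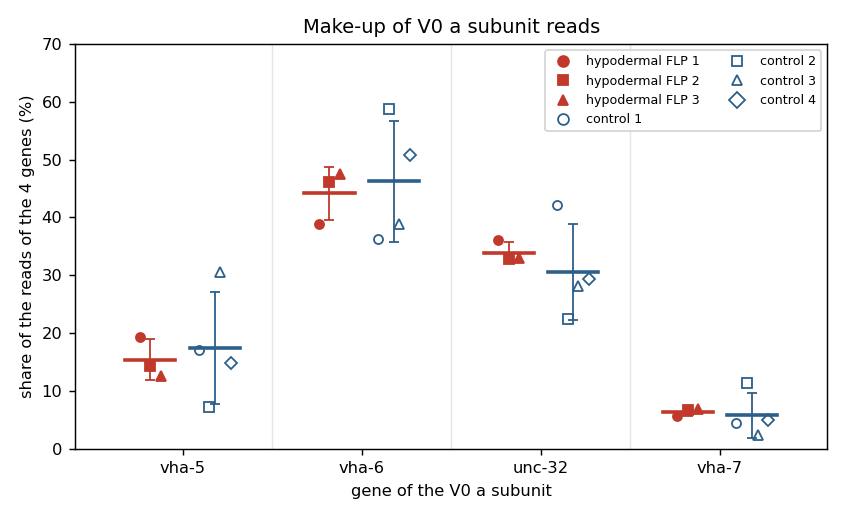
Share (%) of the summed reads of the 4 a subunit genes held by each, in 3 hypodermal FLP libraries (filled red) and 4 control libraries (open blue), with means and SD. Control values of vha-5 run over 7.30 to 30.5% and enclose the hypodermal FLP values of 12.6 to 19.4%.

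In the c ring, vha-1, vha-2 and vha-3 are 3 genes for subunit c. vha-2 held 47.5 ± 3.67% of their reads in hypodermal FLP and 53.9 ± 11.1% in control. vha-1 held 23.0 ± 3.22% in hypodermal FLP and 22.2 ± 5.86% in control. vha-3 held 29.5 ± 4.52% in hypodermal FLP and 23.9 ± 11.9% in control. The group means of each gene differed by less than the control SD. In control replicate 3, vha-2 reached 68.3% while vha-3 was at 11.9%.

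Reads were counted over annotated 3′ UTRs of WBcel235, from 68 bases in vha-6 (chromosome II, 11435212 to 11435279, minus strand) to 603 bases in vha-8 (chromosome IV, 6792027 to 6792629, plus strand). Between 34.8% (vha-8) and 48.5% (vha-6) of UTR bases are T, and reads covered 22.4 (vha-6) to 32.6 (vha-5) Ts each on average. The UTR end of vha-5 overlaps the opposite-strand gene F35H10.10, that of vha-13 the same-strand gene Y49A3A.3, and that of vha-2 the same-strand gene R10E11.6. Whether strand was used in counting is not stated in the labels or headers, so reads of F35H10.10 may be counted with those of vha-5. Reads of the same-strand genes may be counted with those of vha-13 and vha-2 in either case. In the files, 3 of the 10 genes have a second entry that begins at the stop codon and covers 25 to 75% of the UTR. The share of reads in that window shows how far from the coding region tags fell.

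For vha-1 (chromosome III, UTR 9781764 to 9782057, plus strand), the window of 150 bases ends at 9781913. It held 9.72, 12.4 and 18.6% of UTR reads in hypodermal FLP libraries, against 27.4, 18.7, 39.8 and 22.0% in control libraries. The groups did not overlap, though hypodermal FLP replicate 3 and control replicate 2 nearly met. Over 649 genes with such a window, 2.93% had all hypodermal FLP libraries under all controls. The difference of -13.4 percentage points had an exact two-sided permutation p of 0.0571, or 0.171 after Benjamini-Hochberg adjustment over 3 windows. Leaving out control replicate 3 gave -9.12, and leaving out control replicate 2 gave -16.1. This comparison was chosen after its values were seen.

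T>C in vha-1 was also uneven along the UTR. In the window it was in 90 of 4339 reads (2.07%) of hypodermal FLP and 87 of 8100 reads (1.07%) of control, pooled over libraries. In the rest of the UTR it was in 3.44% of reads of hypodermal FLP and 2.69% of control. In vha-5 the contrast ran the same way. Its first 93 bases had 3 T>C reads of 322 in hypodermal FLP and 1 of 517 in control, while the rest of its UTR had T>C in 2.81% of reads in hypodermal FLP and 3.98% in control. vha-13 ran the other way, with 3.95% of reads in hypodermal FLP and 3.71% in control over its first 325 bases, and 2.23% in hypodermal FLP and 2.15% in control over the rest. These within-gene contrasts appeared in both strains, and pooled reads give no test of them.

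**Figure D5:**
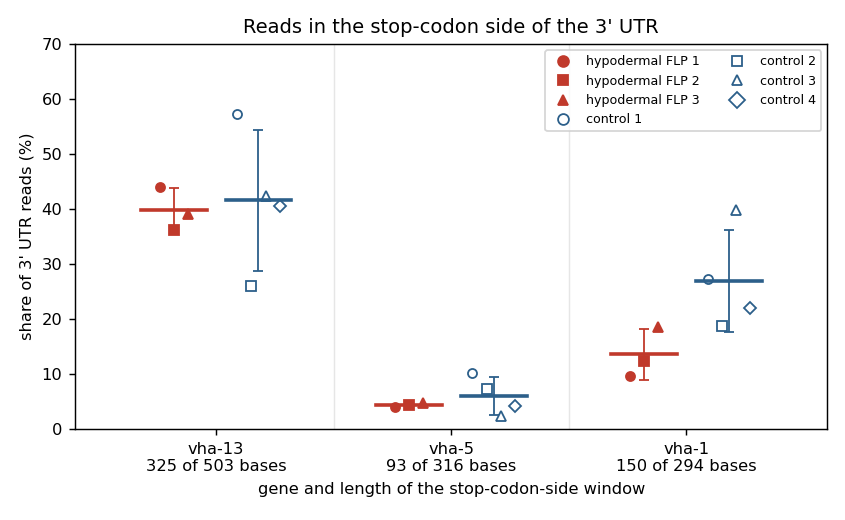
Share (%) of 3′ UTR reads in the window next to the stop codon of vha-13, vha-5 and vha-1, in 3 hypodermal FLP libraries (filled red) and 4 control libraries (open blue), with means and SD. In vha-1 the hypodermal FLP libraries reach 18.6% and the controls begin at 18.7%.

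The other 12 subunit genes gave the same picture. Of these, 11 were tested for labelling, 0 passed in either direction and 6 lay above 0, with a median log2 odds ratio of 0.07 and a range of -0.22 to 0.78. vha-11, for the C subunit that joins V1 to V0, was the one of them whose groups did not overlap in share of T>C reads. T>C was in 2.98, 3.04 and 2.92% of its reads in hypodermal FLP libraries, against 2.21, 2.35, 1.26 and 2.45% in control libraries. Its log2 odds ratio was 0.59 (SE 0.45, unadjusted p 0.196, edgeR). Such separation was found in 5.87% of all genes. Counted as converted Ts among covered Ts, vha-11 had 0.0810 to 0.110% in hypodermal FLP libraries and 0.0532 to 0.0838% in control libraries, which overlap. vha-3 had a log2 odds ratio of 0.46 (SE 0.48) and vha-7 of 0.78 (SE 1.37). By converted Ts the groups of vha-3 did not overlap, though they nearly met. They were at 0.1153 to 0.1435% in hypodermal FLP libraries and 0.0046 to 0.1149% in control libraries. The share of all genes that separate by converted Ts was not counted. In total reads 0 of 12 passed, with log2 fold changes of -0.50 to 0.61. The highest was spe-5, the B subunit gene known from sperm, named after its values were seen. It had 12.7, 16.9 and 12.8 CPM in hypodermal FLP libraries, against 9.46, 12.1, 7.63 and 7.81 CPM in control libraries. These groups did not overlap, as in 2.62% of all genes.

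Of 20 genes that act with the pump, in its assembly, in lysosomes or in nutrient sensing at the lysosome, 16 were tested for labelling and 0 passed. Of these, 13 lay above 0, the median was 0.50 and the range -0.58 to 1.98. The groups did not overlap in 1, lmtr-2, which encodes a subunit of the Ragulator complex that links the pump to TORC1, where 5.87% of all genes did not overlap. T>C was in a mean of 3.84 ± 0.918% of lmtr-2 reads in hypodermal FLP and 1.03 ± 1.11% in control, and its log2 odds ratio of 1.98 (SE 1.11) had an unadjusted p of 0.0753 (edgeR). It was named after its values were seen. In total reads, 18 were tested and 0 passed, with log2 fold changes of -1.17 to 0.47.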

How the data were processed

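T>C reads and all reads of L4 larvae come from 7 libraries made with a 3′ mRNA sequencing kit, per the labels' protocols. The authors' deposited counts, made with slamdunk 0.4.3 on WBcel235 annotation per the file headers, give reads, T>C reads, covered Ts and converted Ts for 47039 3′ UTR entries. The deposited fraction, the conversion rate, was not used beyond a check. The authors' deposited table gives a p-value and an adjusted p-value for 198 genes, with adjusted values of 0.01477 to 0.09998; 21 of its columns of values per library were not used. The submitters' processing notes also name DESeq2 and ce10, with no role for either. How reads were trimmed, how many T>C a read needed and whether variants were masked is not stated in the labels or headers. The multimapping column is 0 throughout, and how reads of near-identical genes were placed is not stated.

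Genes were assigned to entries by transcript name (42202) or sequence name (4823); 14 without a gene (0.00444% of reads) were left out. Of overlapping entries of a gene, the one with the most reads was kept. Labelling was tested on pairs of counts, T>C reads and other reads, by the quasi-likelihood F-test of edgeR 4.0.16 (R 4.3.3) (a term per library, a labelled term, and labelled in hypodermal FLP), requiring 20 reads on average and 10 T>C reads in total per gene. Reads were tested with edgeR after TMM for genes averaging at least 20, and with DESeq2 1.42.0, where 63 genes had no adjusted p. P-values were adjusted by Benjamini-Hochberg over all genes at 0.05. An SE is the estimate over the root of F. Contrasts of paralogs used log2 odds with 0.5 added and exact permutation. limma 3.58.1, Python 3.11.15, pandas 2.3.3, NumPy 2.4.6, SciPy 1.17.1 and matplotlib 3.10.9 were also used. Both tests were checked on simulated data, where the labelling test left most of the added differences uncalled.

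Groups and replicate numbers come from the sample titles. Nothing says that libraries come from separate cultures beyond the protocols' replicas, so p-values measure the spread between these libraries, and intervals cover counting error only. Likeness used genes averaging at least 100 reads: each gene's log2 CPM was centred on its mean. The genes set to be named were all 10 members, vha-3, vha-7 and vha-11 of the other subunits, and any listed gene past a test. spe-5 and lmtr-2 passed no test and were named after their values were seen. The members and lists were chosen with earlier results of these data known. One intestine marker, opt-2, was not matched by name.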

Additional observations from a re-analysis of the deposited data

Results flagged for a closer look

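Of 20 screened groups of control values (labelled share and CPM of the 10 genes), 1 had a library far from the others: chance alone gives about 1 in 20. In vha-2, T>C was in 6.80% of reads in control replicate 2, against 2.21 to 2.95% in the other 3 controls. The gap to the nearest control was 0.838 of the range, above Dixon's critical value at 95% for 4 samples. That library also had the fewest gene reads, 5041278, and the highest share of T>C over all gene reads, 4.58%. Their part in the value of vha-2 was not tested.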

How the results depend on the processing

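In both tests, 0 of the 10 genes passed under any alternative. Unadjusted p (edgeR) fell under 0.05 for vha-1 labelling under the replicate block (0.0458) and without control replicates 1 (0.0320) or 4 (0.0457). Of all genes, 186 of 9581 without control 1 and 320 of 9566 without control 4 were higher at that threshold. Without control replicates 2 and 3, vha-2 (0.0177, log2 0.61) and vha-4 (0.0488, log2 0.83) were under it. In that fit 759 of 9693 genes were higher at that threshold, and the median log2 of all genes was 0.67. The alternatives without controls 2 and 3, the least read, and with flow cell libraries alone were chosen after seeing the data. Over all genes, labelling calls numbered 20 higher without control 2, 1 higher without control 4, and 40 higher with 1 lower without controls 2 and 3. Leaving out each library also moved the median labelling log2 of all genes, from 0.34 (without control 3) to 0.85 (without control 2). The replicate 1 libraries, which are the most deeply read and have no flow cell in the header, deviated together in log2 CPM (r 0.32). Those numbered 2 and 3 did not (r 0.07 and -0.08). The numbers were therefore not taken to pair libraries, and a batch term for the header was among the alternatives. Under the replicate block 185 genes were higher and 12 lower at an unadjusted p under 0.05 (edgeR), with 0 called. Signs changed in 28 labelling and 20 read estimates of the 10 genes, none of them called, and the cause was not tested. Labelling log2 became -0.028 for vha-13 with converted Ts. Centred on pooled odds it was -0.039 for vha-2, -0.20 for vha-4, -0.21 for vha-13 and -0.18 for unc-32. Centred on the median gene it was -0.44 for vha-2, -0.56 for vha-4, -0.61 for vha-13, -0.024 for vha-15 and -0.59 for unc-32, where the median of all genes was -0.06, against 0.30 with pooled odds. Under the replicate block it was -0.043 for vha-13 and -0.070 for unc-32, and with a batch term 0.011 for vha-12. With flow cell libraries alone it was -0.61 for vha-4. Without controls 2 and 3 it was -0.28 for vha-5 and 0.25 for vha-12. Leaving out each library, it ranged from -0.023 to 0.53 for vha-2, -0.54 to 0.58 for vha-4, -0.22 to 0.14 for vha-12, -0.18 to 0.18 for vha-13, -0.17 to 0.30 for unc-32, 0.54 to 1.19 for vha-1, 0.050 to 1.37 for vha-5, 0.16 to 1.16 for vha-6, -0.63 to -0.29 for vha-8 and 0.013 to 0.87 for vha-15. Read log2 became -0.016 for vha-12 with RLE and with DESeq2, -0.066 for vha-1 with all entries summed and 0.043 for vha-6 under the replicate block. Without controls 2 and 3 it was -0.15 for vha-1, 0.13 for vha-13, -0.21 for vha-15 and -0.17 for unc-32. Leaving out each library, it ranged from -0.020 to 0.28 for vha-1, -0.058 to 0.38 for vha-4, -0.46 to 0.12 for vha-5, -0.28 to 0.016 for vha-6, -0.10 to 0.13 for vha-12, -0.35 to 0.055 for vha-13, -0.041 to 0.34 for vha-15 and -0.018 to 0.22 for unc-32. The labelling contrast of vha-5 with vha-6 was 0.17 with converted Ts, 0.39 with flow cell libraries alone and -0.58 to 0.17 leaving out each library; that with unc-32 was -0.55 without controls 2 and 3 and -0.029 to 1.43 leaving out each library. The read ratio of vha-5 to vha-6 was -0.085 with flow cell libraries alone, -0.10 without controls 2 and 3 and -0.46 to 0.42 leaving out each library; that to unc-32 was -0.43 to 0.15 leaving out each library. T>C counts were low in some controls, with 2 and 3 T>C reads of vha-5 in controls 2 and 3 and 2 of vha-6 in control 3.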
